A study of Drosophila melanogaster with 12 samples.

Results

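Neuropeptide precursor genes encode the proteins from which peptide hormones and transmitters are cut, and their mRNAs were followed here through an immunopurification of the RNA-binding protein Pumilio (Pum) from adult fly heads. Members were chosen by name, from a list of 37 FlyBase symbols that was drawn up with earlier results of these data known. Of these, 33 had a row among the 10422 genes counted, with 180 of the 56392 3′-end clusters (groups of neighbouring transcript ends). The filter on low counts left 7645 genes to be tested, and 30 members passed it. Akh, RYa, Burs and Nplp2 were matched to no row and were not analysed here.

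A neuropeptide precursor enters the secretory pathway, is cleaved at basic residues by prohormone convertases, trimmed and often amidated, and is stored in dense core vesicles that are released away from classical synapses. In the fly head such precursors are made by small sets of neurons, among them the insulin-producing cells and the clock neurons, so that most of their mRNAs are scarce in a whole-head sample. Pum is a translational repressor of the PUF family that recognises the Pumilio Response Element (PRE), UGUA then any base then AUA, mostly in 3′ untranslated regions (3′ UTRs).

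In the assay (xRIP-3′-seq), UV light fixes proteins to the RNA they touch, anti-Flag beads recover the tagged protein from lysate, and sequencing reads mark the 3′ ends of the transcripts that come with it. Of 12 libraries from adult heads, 4 were Pum xRIP from pumFlag flies, whose own pum locus carries a C-terminal Flag-HA tag, and 4 were control xRIP, the same Flag purification from w1118 flies (w118 in the labels) without any tag. The other 4 were input, head homogenate of pum flies, of w118 flies and 2 of mixed genotype (columns fne and rbp9). Males and females were used together, and the labels give the genotype of every library as wt. The strain therefore differs between Pum xRIP and control xRIP along with the tag. Each xRIP sample was an aliquot of lysate from pooled head powder, and no source says that replicates came from separate cultures of flies, so that the p-values measure the spread between these libraries, which may be technical.

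Totals were 3050717 to 5051009 counts in the Pum xRIP libraries, 3342790 to 4485996 in the control xRIP libraries and 9563433 to 13726254 in the inputs. Levels are given as counts per 1000000 (CPM) on TMM-scaled library sizes. Since one read marks one transcript end, CPM was not divided by length. The bait itself, pum, had 2419.7, 1112, 2241 and 1306 CPM in Pum xRIP libraries 1 to 4, against 45.5, 0, 47.5 and 10.7 CPM in the control xRIP libraries and 38.2, 76.2, 62.1 and 72.8 CPM in the pum, w118, fne and rbp9 inputs, an order that fits the labels. Neuron markers (elav, nSyb, brp, Syt1, para) were present in every input, at a summed 2012 to 4394 CPM.

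A PRE, searched as TGTANATA on the sense strand of the longest annotated 3′ UTR, was found in 10 of 33 members (30.3%), against 2108 of 9648 genes with an annotated 3′ UTR (21.8%). The members were CCAP, Dh31, Dsk, FMRFa, Hug, ITP, Ms, Proc, Tk and sNPF, and Dh31, ITP and sNPF held 2 copies each. The same letters in reverse order, ATANATGT, were also found in 10 members and in 18.3% of genes. Members' 3′ UTRs had a median of 289 nt, against 292.5 nt over all genes. By 3′ UTR length, a PRE was held by 2 of 10 members of up to 200 nt (7.68% of genes of that length), 2 of 10 of 201 to 400 nt (16.6%), 3 of 8 of 401 to 800 nt (25.8%), 2 of 4 of 801 to 1600 nt (38.3%) and the 1 longer member (58.8%). Within the last 500 nt of the 3′ UTR it was held by the same number of members, 10 of 33, and by 14.8% of genes. The sites of 5 of these members, chosen after their values were seen, are shown because they lie on both sides of input: Dh31, Proc and sNPF had mean levels above input in Pum xRIP, and Hug and Ms below. Each line is 30 nt of the RefSeq Release 6 genome (dm6), 5′ to 3′ on the gene's strand, with the PRE in capitals.
Dh31 site 1: ttgttattcatTGTACATAaatatttatta
Dh31 site 2: cttttaagtatTGTAAATAtaaattattaa
Proc: tgcgataaaatTGTAAATAttttaccccga
sNPF site 1: tttagactcaaTGTATATAcaaaatggaga
sNPF site 2: aatatcatgaaTGTAAATAaaagagcagga
Hug: aactaatgatgTGTATATAccgtacatata
Ms: gaatacatattTGTAAATActcaaagaccc

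The capitals lie at chr2L:8492522-8492529, minus strand, and chr2L:8492017-8492024, minus strand, for Dh31, at chr2L:7865005-7865012, minus strand, for Proc, at chr2L:20055729-20055736, plus strand, and chr2L:20056280-20056287, plus strand, for sNPF, at chr3R:12529024-12529031, plus strand, for Hug and at chr3R:24343448-24343455, plus strand, for Ms, all in annotated 3′ UTR. The central base varied: it was C at the first Dh31 site and A at the second, A in Proc and Ms, T in Hug, and T and A at the sNPF sites. A match is a description of these letters and not a site shown to be bound.

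**Figure D1:**
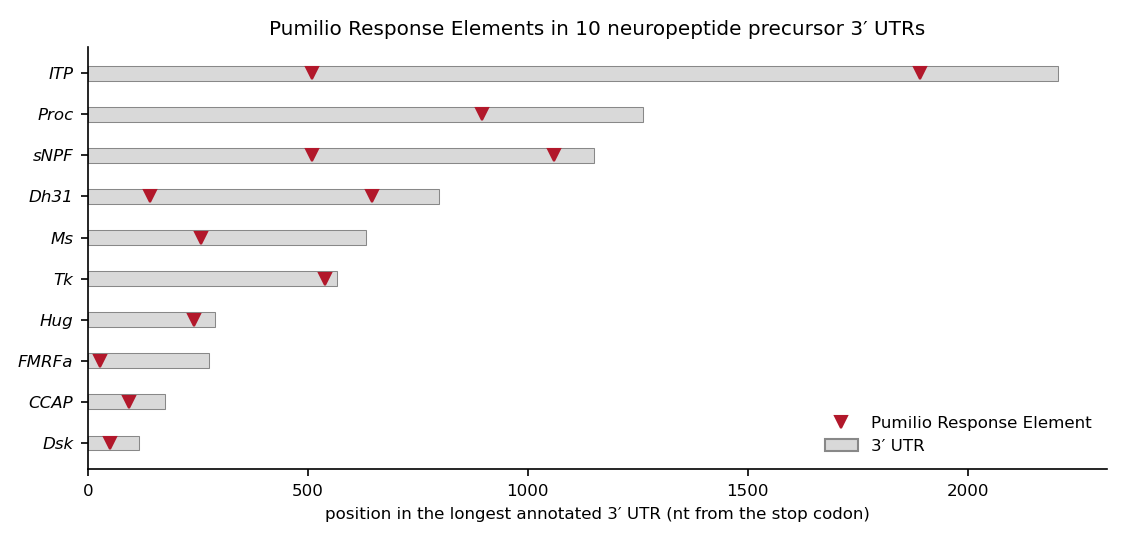
Longest annotated 3′ UTR of each of the 10 members with a PRE (bars, nt from the stop codon, to scale) and the position of each PRE (triangles). The 3′ UTR of ITP is the longest at 2206 nt and that of Dsk the shortest at 116 nt, and Dh31, ITP and sNPF carry 2 elements each.

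Precursor mRNAs were detected in larger number in 3 of 4 Pum xRIP libraries than in any control xRIP library. With 1 count or more as detection, 25, 19, 26 and 26 of 33 members were present in Pum xRIP libraries 1 to 4, against 16, 13, 15 and 20 in the control xRIP libraries and 30 or 31 in every input. As a share of all genes, 47.7, 39.3, 58.6 and 47.9% were detected in the Pum xRIP libraries, 38.3, 38.5, 46.0 and 49.3% in the control xRIP libraries and 83.3 to 92.1% in the inputs. The members' mean share was thus 72.7% ± 10.2 in Pum xRIP, where all genes gave 48.4% ± 7.90, and 48.5% ± 8.92 in control xRIP, where all genes gave 43.0% ± 5.49 (SD, n = 4). Only the second Pum xRIP library, which had the fewest genes of its group, lay below the highest control library. Thinning all libraries to the smallest total gave 25, 19, 26 and 25.9 members in Pum xRIP and 15.6, 13, 15 and 20 in control xRIP. Detected members mostly held many counts, so thinning could hardly remove one. It therefore cannot tell whether the difference in detection comes from depth or from the number of distinct molecules in a library.

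**Figure D2:**
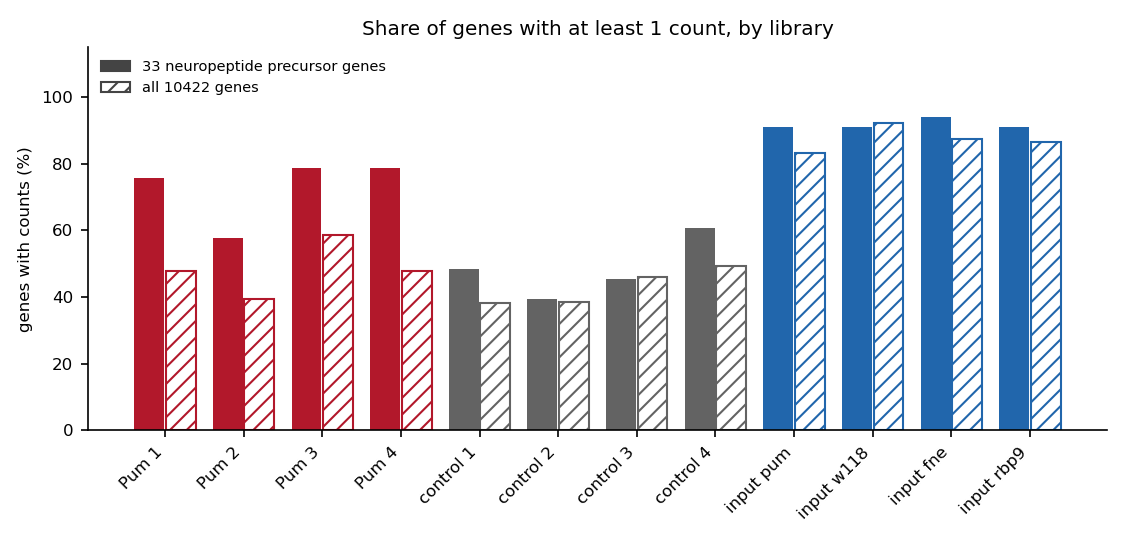
Share of genes with at least 1 count in each library (percent), for the 33 members (filled bars) and all 10422 genes (hatched bars), with the Pum xRIP libraries on the left, control xRIP in the middle and inputs on the right. Members stand above all genes in each Pum xRIP library and below them in the third control xRIP library.

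Presence was uneven from library to library. Of the 33 members, 16 had counts in all 4 Pum xRIP libraries, 6 in 3, 6 in 2, 2 in 1 and 3 in none, against 9, 3, 7, 5 and 9 in the control xRIP libraries, and 30 in all 4 inputs. AstCC, an allatostatin C paralogue, and CNMa, the CNMamide precursor, had 0 counts in every library, and ETH, the ecdysis triggering hormone, had 41 counts in the fne input and 0 elsewhere. Where a member's cluster had any counts it usually had many: the median over such clusters was 69 to 213 counts in the Pum xRIP libraries and at least 67 in the control xRIP libraries, against 30 to 37.5 in the deeper inputs. These counts carry no molecular identifiers, so bounds and intervals below cover counting error only, and a library at 0 beside others far above it in the same group is common.

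Summed over members, levels were 3153, 2337, 3345 and 2891 CPM in Pum xRIP libraries 1 to 4, 9165, 7109, 10453 and 9011 CPM in control xRIP and 2332, 5676, 3766 and 3538 CPM in the pum, w118, fne and rbp9 inputs. Nplp3 had the highest level of the 33 members with a row in each of the 12 libraries. Without it the sums were 1444, 1206, 1536 and 1488 CPM in Pum xRIP, 919, 576, 928 and 985 CPM in control xRIP and 948, 1003, 1197 and 1052 CPM in the inputs, the Pum xRIP libraries then lying above all others. After Nplp3, the highest mean levels in the inputs were those of ITP, Dsk, AstA, Ilp2, Capa, NPF and Pdf, between 71.8 and 103 CPM, and neighbours in that order did not differ beyond their spread over the 4 inputs. In whole heads, fewer cells of a type and less RNA per cell cannot be told apart.

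No member was called between Pum xRIP and input. Calls needed an adjusted p under 0.05 (edgeR quasi-likelihood F test, Benjamini-Hochberg over all genes tested) and an absolute log2 fold change above 1. Fold changes are given with a standard error calculated back from the test, as the absolute log2 fold change over the square root of F. Called higher in Pum xRIP than input were 0 of 30 members, where the background over all genes was 0.549%, and called lower were 0 of 30, against 4.87%. At an unadjusted p under 0.05 there were 2 members, Capa and Nplp3. DESeq2 on 3 groups called 1 higher and 0 lower, DESeq2 on the 2 groups alone 4 higher and 1 lower, and limma voom 1 higher and 1 lower. Of all genes, these fits called 2.89, 5.5 and 2.88% higher and 5.17, 14.1 and 23.2% lower. Without regard to the test, ITP, Capa, Ilp3 and Proc had all 4 Pum xRIP libraries above all 4 inputs (4 of 30, against 5.57% of genes), and Ms, AstA and NPF had all 4 below (3 of 30, against 22.6%). The median log2 fold change was 0.048 over members and -0.54 over all genes.

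Against control xRIP, 3 members were called higher in Pum xRIP (Dh44, AstC and Nplp1, 3 of 30, against 7.72% of genes) and 1 lower (Nplp3, 1 of 30, against 4.45%). Dh44, AstC, ITP, Nplp1, Capa and Proc had all 4 Pum xRIP libraries above all 4 control libraries (6 of 30, against 9.95% of genes), and NPF, Ilp2 and Nplp3 had all 4 below (3 of 30, against 5.7%). ITP, Capa and Proc were above both the control libraries and the inputs in every Pum xRIP library (3 of 30, against 4.47%). The median log2 fold change was 1.24 over members and 0.0 over all genes. These counts lie near the background or a few genes from it. With DESeq2 size factors the median over all genes moved to 0.27 against control xRIP and -0.082 against input. The calls over all genes were then 102.0 higher and 317.0 lower against input, where TMM gave 42.0 and 372.0, and with plain library totals they were 665.0 higher and 229.0 lower against control xRIP, where TMM gave 590.0 and 340.0.

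Between control xRIP and input, where no tagged protein was purified, 1 member was called higher in control xRIP (Nplp3, against 1.82% of genes) and 2 lower (Dh44 and Nplp1, against 10.7%). Ilp2 and Nplp3 had all 4 control libraries above the inputs (2 of 30, against 4.22%), and FMRFa, Dh44, AstA, AstC, Nplp1, Mip, Tk and CCHa1 had all 4 below (8 of 30, against 31.8%). The medians were -0.82 over members and -0.83 over all genes. All 3 comparisons share libraries pairwise and are therefore given side by side.

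Other tissue markers moved with the same groups. Summed neuron markers were at 5107 to 9493 CPM in Pum xRIP, 358 to 655 CPM in control xRIP and 2012 to 4394 CPM in the inputs. Of these, 4 of 5 (nSyb, brp, Syt1, para) were called higher in Pum xRIP than in control xRIP, where 7.72% of all genes were. The means of elav were 178 CPM in Pum xRIP, 21.0 CPM in control xRIP and 138 CPM in the inputs. Glial markers (repo, alrm, wrapper, Eaat1, moody) summed to 611 to 1110.4 CPM in Pum xRIP, 129 to 203 CPM in control xRIP and 359.6 to 517 CPM in the inputs, with repo at 0 in control xRIP. Photoreceptor markers (ninaE, ninaC, trp, norpA, Arr2) were at 14871 to 18262 CPM in Pum xRIP, 7227 to 8739.9 CPM in control xRIP and 22317 to 28128 CPM in the inputs, and fat body markers (Yp1, Yp2, Yp3, Lsp2, apolpp) at 4495 to 7038 CPM in Pum xRIP, 3026 to 3969 CPM in control xRIP and 6881 to 17976 CPM in the inputs. Muscle markers (Mhc, Act88F, up, Mlc2, TpnC41C) ran the other way, at 419 to 533 CPM in Pum xRIP, 1106 to 1427 CPM in control xRIP and 719 to 1784 CPM in the inputs. The genes of a list did not all move as its sum. Against input, 1 photoreceptor marker was called higher in Pum xRIP and 3 lower, where 0.549% and 4.87% of all genes were. Of the 5 glial markers 1 was called higher than input, and their median log2 fold change was -0.15. The testis transcripts Mst87F and Mst84Db were called lower in Pum xRIP than in control xRIP, and with osk (bam and vas have no row) summed to 0 to 24.2 CPM in Pum xRIP, 216 to 542 CPM in control xRIP and 2.601 to 75.3 CPM in the inputs. They also differed between the inputs of the 2 strains, with Mst87F and Mst84Db at 3.68 and 2.80 CPM in the pum input and 28.7 and 46.6 CPM in the w118 input. The part of these markers in the members' differences was not tested.

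**Figure D3:**
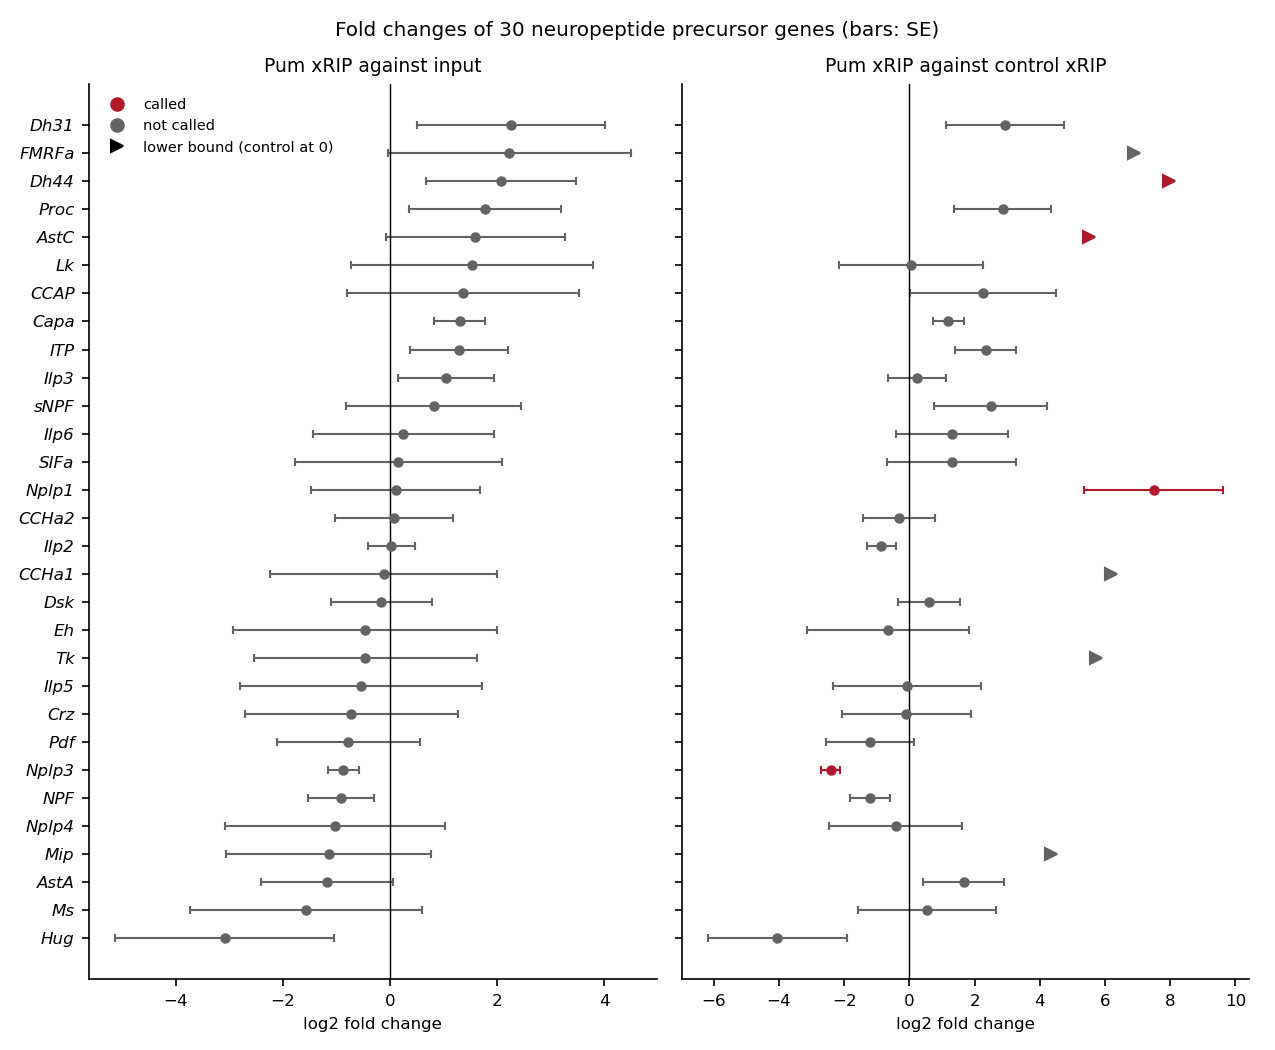
Log2 fold changes of the 30 members tested (points, with standard errors calculated back from the F test as bars), for Pum xRIP against input on the left and against control xRIP on the right, ordered by the first. Red marks a call, and triangles mark lower bounds for the 6 members with 0 counts in all 4 control xRIP libraries. No member is called on the left, and Dh44, AstC, Nplp1 and Nplp3 are called on the right.

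Among hormones of water balance and ecdysis, Capa and ITP stood highest in Pum xRIP. Capa (FBgn0039722, chr3R:29912991-29914346), whose CAPA peptides act on the Malpighian tubules, had 119, 195, 190.4 and 242 CPM in Pum xRIP libraries 1 to 4, against 96.2, 76.4, 67.4 and 87.2 CPM in control xRIP and 74.6, 94.0, 56.4 and 78.2 CPM in the pum, w118, fne and rbp9 inputs. All 4 Pum xRIP values lay above all 8 others, and the control xRIP and input values overlapped. The log2 fold change was 1.30 ± 0.477 (adjusted p = 0.128) against input and 1.19 ± 0.476 (adjusted p = 0.0895) against control xRIP, so neither was called, while control xRIP differed from input by 0.11 ± 0.469 (adjusted p = 0.962). Some fits of other construction called it: edgeR on the 2 groups alone gave 1.25 (adjusted p = 0.0248) against input and DESeq2 on 3 groups gave 1.76 (adjusted p = 7.51e-05) against input and 1.46 (adjusted p = 6.96e-04) against control xRIP. In all, Capa was called in 5 of 20 alternative fits against input and in 2 of 21 against control xRIP. None of the 12 fits that left out 1 library called it in either comparison.

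ITP (FBgn0035023, chromosome arm 2R), which encodes the antidiuretic ion transport peptide and is made in some clock neurons, had 356, 215, 231 and 203 CPM in Pum xRIP, against 0.276, 108, 37.2 and 53.6 CPM in control xRIP and 108, 141, 89.1 and 73.3 CPM in the inputs. Every Pum xRIP value exceeded every control and input value, and control xRIP library 1 was far below the other 3 control libraries. Log2 fold changes were 1.29 ± 0.913 (adjusted p = 0.684) against input, 2.34 ± 0.945 (adjusted p = 0.0921) against control xRIP and -1.05 ± 0.909 (adjusted p = 0.630) between control xRIP and input. Leaving out control xRIP library 1 gave 2.10 (adjusted p = 0.0269) against control xRIP, past the threshold, and edgeR on the 2 groups alone gave 1.25 (adjusted p = 0.0268) against input. Its 2206-nt 3′ UTR holds 2 PREs.

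The other ecdysis hormones were scarce. Eh, the eclosion hormone, had counts in 1 of 4 Pum xRIP libraries, 2 control libraries and all 4 inputs, at 0 to 31.5, 0 to 29.5 and 3.53 to 28.7 CPM. CCAP, the crustacean cardioactive peptide of the ecdysis circuit, had counts in 1 Pum xRIP library and 1 control library, at up to 16.4 and 3.36 CPM, and 0.127 to 3.27 CPM in the inputs. Neither was called in any comparison, with differences from input of -0.47 ± 2.47 (adjusted p = 0.999) for Eh and 1.37 ± 2.17 (adjusted p = 0.981) for CCAP, which rest on 1 Pum xRIP library each.

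Proc (FBgn0045038, chr2L:7864642-7871432), the precursor of the muscle-stimulating peptide proctolin, is described first of the allatostatins and muscle-acting peptides. It had 127, 81.6, 107 and 131 CPM in Pum xRIP, against 10.8, 0, 0 and 50.6 CPM in control xRIP and 28.3, 30.4, 37.8 and 33.9 CPM in the inputs. The Pum xRIP values lay above all others, and 2 control libraries were at 0 while control library 4 reached 50.6 CPM, above every input. Log2 fold changes were 1.78 ± 1.42 (adjusted p = 0.774) against input, 2.86 ± 1.48 (adjusted p = 0.213) against control xRIP and -1.09 ± 1.40 (adjusted p = 0.805) between control xRIP and input. Where the control libraries did not enter the fit, edgeR gave 1.73 (adjusted p = 0.0110) and DESeq2 1.79 (adjusted p = 1.15e-06) against input. Against control xRIP, Proc was called with DESeq2 on 3 groups, at 3.27 (adjusted p = 0.0339), and with limma voom, at 5.91 (adjusted p = 0.0263).

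Ms, the precursor of myosuppressin, which inhibits muscle contraction, and AstA, the allatostatin A precursor of gut and brain neurons, were low in both purifications. AstA had 53.6, 19.3, 36.4 and 60.9 CPM in Pum xRIP, against 10.8, 1.40, 0 and 41.6 CPM in control xRIP and 86.3, 94.1, 99.9 and 106 CPM in the inputs. All xRIP values of either kind were below all inputs, and the Pum xRIP and control values overlapped. The differences were -1.18 ± 1.23 (adjusted p = 0.906) against input, 1.66 ± 1.25 (adjusted p = 0.468) against control xRIP and -2.84 ± 1.30 (adjusted p = 0.181) for control xRIP against input. In other fits, AstA was called lower than input in Pum xRIP with DESeq2 on the 2 groups, at -1.17 (adjusted p = 0.0477), and in control xRIP with limma voom, at -4.94 (adjusted p = 0.00938), and without control xRIP library 4, at -4.86 (adjusted p = 0.0349). Ms had 7.45, 0, 28.9 and 14.9 CPM in Pum xRIP, against 35.02, 0, 0 and 0 CPM in control xRIP and 36.6, 30.7, 56.2 and 29.2 CPM in the inputs. Pum xRIP values were below every input and 3 control libraries were at 0. The log2 fold changes of Ms were -1.58 ± 2.16 (adjusted p = 0.959), 0.55 ± 2.12 (adjusted p = 0.962) and -2.12 ± 2.20 (adjusted p = 0.722) for the same comparisons in that order. Control xRIP was called lower than input for Ms with limma voom, at -6.02 (adjusted p = 0.00347), and without control xRIP library 1, where the other 3 are at 0 (adjusted p = 0.0322).

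AstC (FBgn0032336, chr2L:11076165-11081399), the precursor of the somatostatin-like allatostatin C, was called as higher in Pum xRIP than in control xRIP on few counts. It had 9.23, 28.5, 0.740 and 0.487 CPM in Pum xRIP, 0 in all 4 control libraries and 9.15, 2.13, 0.268 and 1.35 CPM in the inputs. Pum xRIP libraries 3 and 4 were near the lowest input, and the Pum xRIP and input values overlapped. The reads did not fall on the same cluster in each library. Cluster 10 held 100% of AstC counts in Pum xRIP library 2 and in the pum input. It held 0% in the other Pum xRIP libraries and inputs. With 3 counts over the 4 control libraries as the floor, AstC was at least 45.4-fold higher in Pum xRIP than in control xRIP (adjusted p = 0.0331) and differed from input by 1.59 ± 1.67 (adjusted p = 0.909). Without Pum xRIP library 2 this bound was 16.2-fold. The control group was at least 15.02-fold below input, or 5.82-fold without the pum input, and not called (adjusted p = 0.0509), although it was called without Pum xRIP library 2, 3 or 4 (adjusted p = 0.0307, 0.0459 and 0.0466). Leaving out Pum xRIP library 1 (adjusted p = 0.0544), control library 1, 2, 3 or 4 (0.0625, 0.0623, 0.0578 and 0.0584) or the w118, fne or rbp9 input (0.0674, 0.0632 and 0.0714) ended the call against control xRIP.

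Crz, the corazonin precursor, a stress and metabolic peptide related to gonadotropin-releasing hormone, had 8.04, 29.5, 0 and 22.2 CPM in Pum xRIP, against 0, 0, 39.1 and 24.6 CPM in control xRIP and 20.2, 20.3, 32.6 and 25.5 CPM in the inputs. Its groups overlapped throughout, with log2 fold changes of -0.72 ± 1.99 (adjusted p = 0.998), -0.094 ± 1.98 (adjusted p = 1) and -0.63 ± 1.99 (adjusted p = 0.946) for Pum xRIP against input, Pum xRIP against control xRIP and control xRIP against input. Mip, the myoinhibiting peptide precursor, and FMRFa, which yields FMRFamide-related peptides, were each detected in 2 of 4 Pum xRIP libraries and in no control library. Mip reached 15.5 CPM and FMRFa 60.2 CPM in Pum xRIP, against input ranges of 4.33 to 21.5 and 2.79 to 7.05 CPM. At the control floor they were at least 20.4-fold and 117-fold higher in Pum xRIP, and neither was called by edgeR with all 12 libraries (adjusted p = 0.0637 and 0.0585). DESeq2 on 3 groups called FMRFa higher than control xRIP (adjusted p = 4.14e-18). It also called FMRFa and Mip lower in control xRIP than input (adjusted p = 1.08e-13 and 0.0468). Without Pum xRIP library 3 the bound of Mip was 3.03-fold, and without Pum xRIP library 1 that of FMRFa was 63.2-fold. FMRFa was called without Pum xRIP library 2, where it has no counts (adjusted p = 0.0454).

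Among sleep and clock modulators, Dh44 (FBgn0012344, chr3R:9638182-9650706), the corticotropin-releasing-factor-like diuretic hormone of the pars intercerebralis, was called as higher in Pum xRIP than in control xRIP. It had 11.9, 137, 31.6 and 34.8 CPM in Pum xRIP, 0 in all 4 control libraries and 17.2, 17.2, 10.4 and 6.36 CPM in the inputs. Pum xRIP library 2 was far above the rest, and library 1 lay within the input range. Dh44 was at least 250.5-fold higher in Pum xRIP than in control xRIP (adjusted p = 0.00737), and control xRIP was at least 59.6-fold below input (adjusted p = 0.0133). Without Pum xRIP library 2 the first bound was 122-fold. Against input the difference was 2.07 ± 1.40 (adjusted p = 0.654) and was not called. The call against control xRIP was made in all 12 fits that left out 1 library, and without the mixed-genotype inputs the call between control xRIP and input was lost (adjusted p = 0.0628).

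Nplp1 (FBgn0035092, chromosome arm 2R), a precursor of several amidated brain peptides, showed the same order on fewer reads. It had 19.96, 22.0, 0.740 and 21.9 CPM in Pum xRIP, against 0.276, 0, 0 and 0 CPM in control xRIP and 9.66, 17.1, 19.1 and 14.4 CPM in the inputs. The third Pum xRIP library was close to 0 like the controls, and the other 3 lay just above the inputs, although in library 4 the reads fell on cluster 6, which had 0 counts in every other library. Its 295 counts in Pum xRIP against 1 count in control xRIP gave a ratio of 217 with a 95% exact counting interval of 38.7 to 8612 (adjusted p = 0.0366). Against input it differed by 0.10 ± 1.58 (adjusted p = 0.9999), and control xRIP was below input (adjusted p = 0.0366). The call against control xRIP was lost without control library 2, 3 or 4 (adjusted p = 0.0553, 0.0523 and 0.0530) and without any of the pum, w118, fne or rbp9 inputs (0.0706, 0.0744, 0.0759 and 0.0760). The call of control xRIP against input was lost without the pum, w118, fne or rbp9 input as well (adjusted p = 0.0622, 0.0847, 0.0893 and 0.0864).

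Dh31 (FBgn0032048, chr2L:8491868-8506845), the calcitonin-like, wake-promoting diuretic hormone 31 of dorsal clock neurons, was high in 3 of 4 Pum xRIP libraries. It had 149, 20.8, 157 and 132 CPM in Pum xRIP, against 0, 0, 0 and 59.9 CPM in control xRIP and 20.7, 33.3, 25.3 and 16.4 CPM in the inputs. Pum xRIP library 2 fell within the input range, and control library 4 was the only control with counts. Log2 fold changes were 2.26 ± 1.76 (adjusted p = 0.752) against input, 2.93 ± 1.81 (adjusted p = 0.331) against control xRIP and -0.67 ± 1.69 (adjusted p = 0.927) between control xRIP and input, none of them called by edgeR with all 12 libraries. Limma voom called Dh31 higher than control xRIP, at 6.99 (adjusted p = 0.0176), and DESeq2 on the 2 groups higher than input, at 2.25 (adjusted p = 0.00383). Without control library 4 the other 3 control libraries are all at 0 and Pum xRIP against control xRIP passed the threshold (adjusted p = 0.00124), as did control xRIP against input (adjusted p = 0.00296). The gene overlaps Bace on the same strand, and its 799-nt 3′ UTR holds the 2 PREs printed for Dh31.

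Pdf, the pigment-dispersing factor of the ventral clock neurons, had 39.0, 0, 123 and 5.11 CPM in Pum xRIP, against 213, 14.0, 70.6 and 85.6 CPM in control xRIP and 31.9, 54.6, 108 and 93.1 CPM in the inputs. All 3 groups overlapped, and the Pum xRIP values ran from 0 to above the highest input. Log2 fold changes were -0.78 ± 1.34 (adjusted p = 0.985) against input, -1.20 ± 1.35 (adjusted p = 0.688) against control xRIP and 0.41 ± 1.33 (adjusted p = 0.947) between control xRIP and input.

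Of the remaining modulators, Tk (tachykinin), SIFa (SIFamide), CCHa1 (CCHamide-1, a sleep-depth peptide of the gut and brain) and Hug (the feeding peptide hugin) each had counts in 2 of 4 Pum xRIP libraries. Tk and CCHa1 had 0 counts in control xRIP, and were at least 52.6-fold and 72.0-fold higher in Pum xRIP without being called by edgeR with all 12 libraries (adjusted p = 0.0618 and 0.0613). DESeq2 on 3 groups called both higher than control xRIP (adjusted p = 0.00611 and 0.00236). It also called CCHa1 lower in control xRIP than input (adjusted p = 0.00580). The bound of Tk was 33.04-fold without Pum xRIP library 4 and that of CCHa1 33.1-fold without Pum xRIP library 1, and Tk was called without Pum xRIP library 2, where it has no counts (adjusted p = 0.0477). Hug was at 0 to 8.51 CPM in Pum xRIP, 0 to 65.6 CPM in control xRIP and 7.12 to 26.8 CPM in the inputs, and was not called against control xRIP (-4.05 ± 2.14 (adjusted p = 0.225)) or input (-3.09 ± 2.05 (adjusted p = 0.625)), except against input with limma voom, at -5.17 (adjusted p = 0.0116). SIFa ranged over 0 to 92.1 CPM in Pum xRIP, 0 to 39.8 CPM in control xRIP and 23.7 to 47.2 CPM in the inputs.

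None of the insulin-like peptides was called as a gene by edgeR with all 12 libraries. Ilp2 (FBgn0036046, chr3L:9799698-9800440), an insulin of the brain's insulin-producing cells, had 95.9, 106, 110.3 and 68.7 CPM in Pum xRIP, against 207, 155, 139.9 and 191 CPM in control xRIP and 95.0, 82.9, 105 and 91.3 CPM in the inputs. Control xRIP was above both other groups in every library, and Pum xRIP and input overlapped. The log2 fold changes of Ilp2 were 0.026 ± 0.442 (adjusted p = 0.9999) against input, -0.86 ± 0.445 (adjusted p = 0.211) against control xRIP and 0.89 ± 0.445 (adjusted p = 0.239) for control xRIP against input. DESeq2 on 3 groups called Ilp2 higher in control xRIP than input, at 1.07 (adjusted p = 0.0122). Ilp3, from the same cells, had 63.1, 50.3, 39.2 and 73.8 CPM in Pum xRIP, against 5.79, 50.9, 77.0 and 59.9 CPM in control xRIP and 31.3, 22.0, 37.9 and 18.3 CPM in the inputs. All Pum xRIP values of Ilp3 exceeded the inputs, but 3 of 4 control values did so too, and its log2 fold changes were 1.05 ± 0.895 (adjusted p = 0.812), 0.23 ± 0.887 (adjusted p = 0.963) and 0.82 ± 0.892 (adjusted p = 0.740) in the same order.

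Ilp5, the third insulin of these cells, had 11.3, 0, 27.9 and 7.79 CPM in Pum xRIP, against 0, 0, 0 and 49.5 CPM in control xRIP and 17.3, 7.73, 21.5 and 22.3 CPM in the inputs. Only control library 4 held counts in its group, and Pum xRIP overlapped the inputs. The log2 fold changes of Ilp5 were -0.55 ± 2.26 (adjusted p = 0.999) against input, -0.073 ± 2.26 (adjusted p = 1) against control xRIP and -0.47 ± 2.26 (adjusted p = 0.966) between control xRIP and input. Without control library 4, whose group is then all at 0, control xRIP was called lower than input (adjusted p = 0.0465). Ilp6, an insulin-like peptide of fat body and glia, had 43.2, 44.9, 16.5 and 11.2 CPM in Pum xRIP, against 0, 0, 32.4 and 14.5 CPM in control xRIP and 34.3, 25.5, 20.1 and 17.6 CPM in the inputs. Ilp6 overlapped between all groups, with log2 fold changes of 0.25 ± 1.69 (adjusted p = 0.999), 1.30 ± 1.72 (adjusted p = 0.749) and -1.06 ± 1.71 (adjusted p = 0.865) in the same order.

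NPF and sNPF, both feeding peptides, differed in their order. NPF (FBgn0027109, chr3R:16609220-16611325), the fly relative of neuropeptide Y, had 29.5, 40.3, 33.3 and 53.3 CPM in Pum xRIP, against 54.6, 77.3, 132 and 97.9 CPM in control xRIP and 84.2, 74.6, 73.7 and 62.7 CPM in the inputs. Each Pum xRIP value lay below every control and every input value, and the control and input values overlapped. Its log2 fold changes were -0.92 ± 0.618 (adjusted p = 0.639) against input, -1.21 ± 0.622 (adjusted p = 0.209) against control xRIP and 0.29 ± 0.613 (adjusted p = 0.906) for control xRIP against input. sNPF, short neuropeptide F of many brain neurons, had 52.4, 0.983, 156 and 63.3 CPM in Pum xRIP, against 32.5, 0, 16.04 and 0 CPM in control xRIP and 15.8, 49.2, 45.5 and 44.7 CPM in the inputs. Pum xRIP libraries 1, 3 and 4 exceeded all other libraries while library 2 was near 0, and the log2 fold changes of sNPF were 0.81 ± 1.64 (adjusted p = 0.986), 2.49 ± 1.72 (adjusted p = 0.413) and -1.67 ± 1.67 (adjusted p = 0.704) in the same order.

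CCHa2, a nutrient-responsive peptide of gut and fat body, Dsk, the cholecystokinin-like satiety peptide drosulfakinin, and Lk, the diuretic leucokinin, showed no order between groups. CCHa2 had 49.1, 99.0, 26.6 and 15.3 CPM in Pum xRIP, against 87.1, 0.560, 105 and 44.6 CPM in control xRIP and 61.5, 24.2, 54.1 and 41.4 CPM in the inputs. Dsk had 36.9, 86.5, 45.5 and 181 CPM in Pum xRIP, against 102, 30.5, 98.2 and 1.91 CPM in control xRIP and 56.3, 49.5, 163 and 124 CPM in the inputs. Lk had 32.8, 0, 4.63 and 17.3 CPM in Pum xRIP, against 0, 51.8, 0 and 1.09 CPM in control xRIP and 3.18, 2.9996, 1.964 and 10.8 CPM in the inputs. All of these ranges overlapped, and single libraries near 0 stood beside others far above them in the xRIP groups. For Pum xRIP against input, against control xRIP and for control xRIP against input, CCHa2 gave 0.070 ± 1.10 (adjusted p = 0.9999), -0.32 ± 1.10 (adjusted p = 0.9504) and 0.39 ± 1.10 (adjusted p = 0.938). Dsk gave -0.17 ± 0.946 (adjusted p = 0.999), 0.59 ± 0.949 (adjusted p = 0.814) and -0.76 ± 0.951 (adjusted p = 0.800), and carries a PRE in a 3′ UTR of 116 nt. Lk gave 1.53 ± 2.25 (adjusted p = 0.969), 0.047 ± 2.21 (adjusted p = 1) and 1.48 ± 2.25 (adjusted p = 0.855).

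Nplp3 (FBgn0042201, chr3L:16318024-16318690), annotated as a neuropeptide-like precursor, was by far the most abundant of the 33 members with a row and was called lower in Pum xRIP than in control xRIP. It had 1708, 1131, 1809 and 1403 CPM in Pum xRIP, against 8246, 6533, 9526 and 8025 CPM in control xRIP and 1384, 4674, 2569 and 2486 CPM in the pum, w118, fne and rbp9 inputs. Every control library was above every input, every Pum xRIP library was below every control library, and Pum xRIP overlapped the inputs through the low pum input. Log2 fold changes were -2.42 ± 0.302 (adjusted p = 2.18e-04) against control xRIP, -0.88 ± 0.289 (adjusted p = 0.0931) against input and 1.54 ± 0.294 (adjusted p = 0.00454) for control xRIP against input. The call against control xRIP was made in 12 of 12 fits that left out 1 library, and leaving out the pum input made the difference from input pass the threshold (-1.21 (adjusted p = 0.0150)). Over all alternatives the call against control xRIP was made in 20 of 21 fits, and limma voom did not make it (adjusted p = 0.314). The call of control xRIP against input was made in 19 of 20. Strain moved with this result: the pum input was at 0.296 times the w118 input, Pum xRIP averaged 1.09 times the pum input, and control xRIP 1.73 times the w118 input. With 1 input per strain these ratios have no test, and the tag and the strain cannot be told apart.

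Nplp4, the other precursor of that name, had 13.4, 8.03, 0 and 10.7 CPM in Pum xRIP, against 29.0, 0, 0 and 14.2 CPM in control xRIP and 14.2, 15.3, 9.64 and 26.6 CPM in the inputs. Its groups overlapped, with log2 fold changes of -1.03 ± 2.05 (adjusted p = 0.986), -0.43 ± 2.03 (adjusted p = 0.976) and -0.61 ± 2.03 (adjusted p = 0.952) for Pum xRIP against input, Pum xRIP against control xRIP and control xRIP against input.

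The 10 tested members with a PRE had a median log2 fold change of 1.05 for Pum xRIP against input and 2.41 against control xRIP, with members at 0 in control xRIP set to their bound. The 20 without a PRE had medians of -0.047 and 0.14. Between control xRIP and input the medians were -1.07 with and -0.54 without a PRE. Within the 10, values against input ran from -3.09 for Hug to 2.26 for Dh31, so PRE members stood at both ends, and Capa, Dh44 and AstC, all above 1 against input, have none. These medians are descriptions without a test.

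At the level of 3′-end clusters, 52 member clusters were among 14235 tested. None was called higher in Pum xRIP than input (0 of 52, against 0.211% of clusters), and 2 were called lower (cluster 2 of Ms and cluster 6 of Nplp3, against 9.48%). Against input, 6 had an unadjusted p under 0.05. DESeq2 called 1 higher on 3 groups (against 1.41% of clusters) and 4 on the 2 groups alone (against 4.07%). Against control xRIP, 3 were called higher (clusters 4 and 6 of Dh44 and cluster 2 of Ilp5, against 8.91%) and 1 lower (cluster 6 of Nplp3, against 3.07%). For control xRIP against input, cluster 6 of Nplp3 was called higher (1 of 52, against 0.576%) and 11 clusters of Ms, Dh44, Nplp1, Mip, Tk, Nplp4 and Ilp5 lower (against 25.6%). Cluster numbers come with no coordinates and are used here as names only. Against control xRIP, cluster 4 of Dh44 and cluster 6 of Nplp3 were called in all 12 fits that left out 1 library, cluster 6 of Dh44 in 2 of them (without Pum xRIP library 1 or 2) and cluster 2 of Ilp5 in 1 (without Pum xRIP library 2). Of the 11 clusters lower in control xRIP than input, cluster 2 of Ms and cluster 4 of Dh44 were called in all 12. The calls of Ms and Nplp3 clusters against input were lost without the w118 input (adjusted p = 0.0541 at the highest for cluster 2 of Ms, lost without the rbp9 input too, and 0.0488 for cluster 6 of Nplp3, where the log2 fold change no longer passed 1).

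Of the 4 Dh44 clusters with counts in the inputs, only 2 had counts in Pum xRIP, clusters 4 and 6. Cluster 4 had 11.9, 94.1, 15.5 and 9.50 CPM in Pum xRIP, 0 in all 4 control libraries and 15.9, 13.2, 7.14 and 4.91 CPM in the inputs, and cluster 6 had 0, 42.6, 16.1 and 25.3 CPM in Pum xRIP, 0 in the control libraries and 1.27, 3.87, 2.95 and 1.06 CPM in the inputs. Cluster 4 overlapped the inputs, while 3 of 4 Pum xRIP libraries exceeded every input at cluster 6. Over the reads of each group, cluster 4 made up 62.0% of Dh44 counts in Pum xRIP and 78.8% in the inputs. The ITP reads fell mainly on clusters 10 and 3, with 159, 140.0, 124 and 91.6 CPM in Pum xRIP, 0.276, 85.9, 31.8 and 36.6 CPM in control xRIP and 48.2, 76.2, 57.7 and 35.4 CPM in the inputs at cluster 10. At cluster 3 of ITP the values were 166, 50.0, 107 and 111 CPM in Pum xRIP, 0, 21.8, 5.45 and 17.0 CPM in control xRIP and 58.3, 61.1, 29.6 and 31.2 CPM in the inputs. Cluster 10 was above all controls and inputs in every Pum xRIP library, cluster 3 in 3 of 4. Cluster 10 made up 53.1% in Pum xRIP and 53.7% of ITP counts in the inputs.

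For Ilp5 the gene sum and the clusters differed. Its cluster 2 had 11.3, 0, 27.9 and 7.79 CPM in Pum xRIP, 0 in all 4 control libraries and 17.3, 4.33, 16.4 and 22.3 CPM in the inputs, and was called against control xRIP (adjusted p = 0.0449), whereas the counts of control library 4 fell on clusters 1 and 3. Cluster 6 carried 99.3% of Nplp3 counts in Pum xRIP, 99.3% in the control libraries and 99.5% in the inputs, and its log2 fold changes were -2.43 ± 0.310 against control xRIP (adjusted p = 6.21e-04) and -1.23 ± 0.299 against input (adjusted p = 0.0207). Cluster 1 of Dh31 and cluster 2 of Capa carried 100% and 92.2% of their genes' Pum xRIP counts, against 93.5% and 74.9% in the inputs. Ms was spread over the most clusters, with counts at 13 in the inputs, 4 in Pum xRIP and 1 in control xRIP.

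The machinery that processes the precursors was present but none of it was called. Of 10 processing enzymes and helpers (amon, svr, Phm, Pal1, Pal2, 7B2, Fur1, Fur2, QC, isoQC), all 10 were tested and 0 were called in any comparison. At an unadjusted p under 0.05 there were 2 against input, 4 against control xRIP and 4 between control xRIP and input, and DESeq2 on 3 groups called 1 higher against input, 5 higher against control xRIP and 1 lower in control xRIP than input. Of all genes, that fit called 2.89% higher against input, 16.4% higher against control xRIP and 13.1% lower in control xRIP than input. The median log2 fold change of the 10 was 0.10 against input and 1.37 against control xRIP, where all genes gave -0.54 and 0.0. The most abundant in the inputs, Pal2, a lyase of the amidation step, had 365, 346, 209 and 619.6 CPM in Pum xRIP, against 1.93, 78.4, 0 and 112 CPM in control xRIP and 543, 216, 235 and 509 CPM in the inputs. Pal2 differed by 0.033 ± 1.11 (adjusted p = 0.9999) from input and 3.002 ± 1.20 (adjusted p = 0.0891) from control xRIP. Of 6 peptidases that degrade peptides (Nep1 to Nep5 and Ance), 5 were tested and 0 called (1, 1 and 0 at an unadjusted p under 0.05 and 0 by DESeq2 on 3 groups in each comparison), with medians of -1.79 against input and -0.41 against control xRIP. DESeq2 on the 2 groups, edgeR on the 2 groups and voom each called 1 lower than input. Voom also called 1 higher than control xRIP and 3 lower in control xRIP than input. Of all genes, voom called 23.2% lower than input in Pum xRIP and 36.5% in control xRIP, and 7% higher in Pum xRIP than in control xRIP. DESeq2 and edgeR on the 2 groups called 14.1 and 12.5% of genes lower than input in Pum xRIP. Nep2, a neprilysin and the most abundant of the peptidases in the inputs, averaged 23.3 ± 21.0 CPM in Pum xRIP, 30.9 ± 24.3 CPM in control xRIP and 80.6 ± 26.2 CPM in the inputs (SD, n = 4). Of 13 further peptide genes (such as Gpb5, Trissin and Orcokinin), 7 had a row, 6 were tested and 0 were called (0, 0 and 1 at an unadjusted p under 0.05 and 0, 0 and 1 by DESeq2 on 3 groups), with medians of -0.23 and 1.27. Voom called 2 of these lower than input in Pum xRIP and 3 in control xRIP. Orcokinin averaged 44.7 ± 29.9 CPM in Pum xRIP, 11.5 ± 13.3 CPM in control xRIP and 79.3 ± 14.5 CPM in the inputs.

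Dense core vesicle genes gave the only calls among these peptide lists when edgeR was fitted with all 12 libraries. Of 9 genes, 7 were tested, with medians of 0.71, 1.80 and -1.09. In Pum xRIP, 1 was called higher than input (against 0.549% of genes) and 2 higher than in control xRIP (against 7.72%). In control xRIP, 1 was called lower than input (against 10.7%). IA-2, a receptor-type phosphatase-like protein of the vesicle membrane, was called in all of these, at 10069.7, 7979, 7537 and 9177 CPM in Pum xRIP, against 175, 279.9, 372 and 308 CPM in control xRIP and 6307, 3803, 3241 and 3975 CPM in the inputs. Its groups did not overlap in any pair, and it rose by 1.005 ± 0.241 (adjusted p = 0.0244) against input and 4.94 ± 0.282 (adjusted p = 4.95e-07) against control xRIP. The difference from input lay at the threshold of 1. Of the 7 genes, edgeR on the 2 groups alone called 0 higher than input, against 2 with either DESeq2 fit and 1 with voom. Against control xRIP these fits called 2, 3, 3 and 1 higher. Of all genes, edgeR on the 2 groups, DESeq2 on 2 and on 3 groups and voom called 3.49, 5.5, 2.89 and 2.88% higher than input. Against control xRIP they called 5.65, 11.1, 16.4 and 7% of genes higher. Vmat, the vesicular monoamine transporter, had 249, 229.6, 378 and 579 CPM in Pum xRIP, against 23.7, 31.4, 134 and 39.9 CPM in control xRIP and 82.5, 174, 158 and 194 CPM in the inputs. All Pum xRIP values of Vmat were above all others, and it was called against control xRIP, at 2.65 ± 0.609 (adjusted p = 0.0132), and not against input, at 1.24 ± 0.581 (adjusted p = 0.280).

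Several members share ground with another annotated gene. Ilp2 and Dh31 overlap CG32052 and Bace on the same strand, and Ilp3, Ilp5, Ilp6, Dsk, Lk, Dh44, Tk, SIFa, Hug, ETH, CCAP and ITP overlap a gene on the opposite strand. Whether strand was used in counting is not given in the sources used here, so reads of these members and of their overlapping partners may not have been told apart.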

How the data were processed

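Raw read counts of genes and of 3′-end clusters were used as the authors deposited them. In the study's methods, reads were trimmed with fastp, aligned to dm6 with STAR 2.6.1b without splicing, filtered for internal priming at A-rich sites, joined into clusters that reach up to 500 bp beyond genes of Ensembl release 93, and recounted. Gene counts equalled the sum of their clusters for all 10422 genes, and tables for different pairs of groups held the same counts. No column of per-sample values was left out. Symbols and 3′ UTRs came from Ensembl release 115 and the RefSeq Release 6 genome, in which 13902 of 13914 annotated start codons read ATG.

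The 3 groups were fitted together with edgeR 4.0.16 (R 4.3.3) after a filter on low counts by group, with TMM scaling, and tested by the quasi-likelihood F test with Benjamini-Hochberg adjustment. CPM are counts per 1000000 of TMM-scaled library size. Folds against a group at 0 used a floor of 3 counts over its 4 libraries, and ratios on 1 to 3 counts carry exact Clopper-Pearson intervals at 95%. Alternatives were DESeq2 1.42.0, limma 3.58.1 voom, other scalings, no filter, fits on 2 groups, a replicate block, leaving out the mixed inputs and leaving out each library. The fit was tested on simulated counts with the same dispersion for every gene. These did not imitate single xRIP libraries at 0 beside others far above them, so that test does not cover such genes. Members given per library were those called, or among the 12 highest in input, or with counts in at least 3 of 4 Pum xRIP libraries. The members and lists were chosen with earlier results of these data known.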

Additional observations from a re-analysis of the deposited data

Results flagged for a closer look

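Within groups of 4 libraries, 8 of the 64 groups examined (22 members in up to 3 groups) held 1 library far from the other 3 by Dixon's ratio of gap to range, taken at its 95% critical value. Chance flags about 1 in 20, or 3.2 of 64, and in 4 of the 8 the other 3 libraries were at 0, where any count gives the highest possible ratio. These 4 were Ilp5 and Dh31, with 49.5 and 59.9 CPM in control xRIP library 4, and Nplp1 and Ms, with 0.276 and 35.02 CPM in control xRIP library 1. Lk had 51.8 CPM in control xRIP library 2, where the other control libraries held 0 to 1.09 CPM, and 10.8 CPM in the rbp9 input, where the others held 1.964 to 3.18 CPM. Nplp1 had 0.740 CPM in Pum xRIP library 3, against 19.96 to 22.0 CPM in the other Pum xRIP libraries. sNPF had 15.8 CPM in the pum input, against 44.7 to 49.2 CPM in the other inputs. Dh31 is the member whose comparison with control xRIP turned on such a library.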

How the results depend on the processing

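Single changes of setting left 840 alternative values of named members on the same side of the threshold and in the same direction, ended 29 calls, made 20 and reversed 67. Counts of called members are small, so that 1 gene moves them by a large share. Against input, 0 members were called higher with TMM, against 1 with DESeq2 size factors, 1 with DESeq2 on 3 groups, 1 with limma voom, 3 with edgeR on the 2 groups alone and 4 with DESeq2 on the 2 groups alone, and 0 were called lower, against 1 with DESeq2 on the 2 groups and 1 with voom. Of all genes, TMM called 0.549% higher, and the others, in that order, 1.33, 2.89, 2.88, 3.49 and 5.5%. Lower were 4.87% with TMM, 14.1% with DESeq2 on the 2 groups and 23.2% with voom. Against control xRIP, 3 members were called higher, against 9 with DESeq2 on 3 groups, 1 with edgeR on the 2 groups and 1 without the inputs of mixed genotype, and 1 was called lower, against 0 with voom. Of all genes, these fits called 7.72, 16.4, 5.65 and 2.76% higher, with TMM first. Lower were 4.45% with TMM and 1.75% with voom. For control xRIP against input, 1 member was called higher, against 2 with either DESeq2 fit and 0 without the mixed inputs, and 2 were called lower, against 1 without the filter on low counts, 6 with edgeR on the 2 groups, 6 with either DESeq2 fit, 12 with voom and 0 without the mixed inputs. Of all genes, 1.82% were higher with TMM, 3.14 and 5.02% with DESeq2 on 3 and 2 groups and 0.752% without the mixed inputs. Lower were 10.7% with TMM, 3.25% without the filter, 17.5% with edgeR on the 2 groups and 36.5% with voom. DESeq2 called 13.1% lower on 3 groups and 21.4% on 2, and the fit without the mixed inputs 3.07%. Of member clusters, 0 were called higher than input, against 1 with size factors, 1 with DESeq2 on 3 groups and 4 with DESeq2 on the 2 groups, and 2 were called lower, against 1 with size factors, library totals, no filter, DESeq2 on 3 groups or without the mixed inputs, 4 with DESeq2 on the 2 groups and 12 with voom. Of all clusters, TMM called 0.211% higher, size factors 0.794% and DESeq2 1.41% on 3 groups and 4.07% on 2. Lower were 9.48% with TMM, 7.64% with size factors, 8.13% with totals and 0.193% without the filter. DESeq2 called 7.36% lower on 3 groups and 22.1% on 2, voom 33.6% and the fit without the mixed inputs 4.31%. Against control xRIP, 3 member clusters were called higher, against 1 without the filter, with edgeR on the 2 groups or with voom, 15 with DESeq2 on 3 groups and 0 without the mixed inputs, and 1 was called lower, against 4 with DESeq2 on 3 groups and 0 with voom. Of all clusters, 8.91% were higher with TMM, 0.871% without the filter, 9.5% with edgeR on the 2 groups and 4.59% with voom. DESeq2 on 3 groups called 23% higher and 6.69% lower, and the fit without the mixed inputs 1.44% higher. Lower were 3.07% with TMM and 0.92% with voom. For control xRIP against input, 1 member cluster was called higher, against 0 without the filter, with DESeq2 on 3 groups, with voom or without the mixed inputs, and 11 were called lower, against 24 with voom and 0 without the filter or the mixed inputs. Of all clusters, 0.576% were higher with TMM, 0.0215% without the filter and 0.541% with DESeq2 on 3 groups. Voom called 0.913% higher and the fit without the mixed inputs 0.168%. Lower were 25.6% with TMM, 57.4% with voom, 0.772% without the filter and 5.93% without the mixed inputs. The causes were not tested.

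Leaving out each library in turn gave 0 member genes higher and 0 to 1 lower than input, 1 to 5 higher and 1 lower than control xRIP, and 1 higher and 1 to 5 lower in control xRIP than input. The 5 higher than control xRIP came without Pum xRIP library 2, and the single call was Dh44 in the fits without control library 2 or 3 and without the w118, fne or rbp9 input. Calls gained for control xRIP against input were AstC, Mip, Tk and CCHa1 without single Pum xRIP libraries and Ms, AstA, Dh31 and Ilp5 without single control libraries. For member clusters the same fits gave 0 higher and 0 to 6 lower than input, 1 to 7 higher and 1 lower than control xRIP, and 0 to 1 higher and 2 to 20 lower in control xRIP than input. Of all clusters, they called 0.0734 to 0.366% higher and 5.75 to 20.1% lower than input. Against control xRIP they called 3.19 to 11.6% higher and 1.09 to 2.08% lower. In control xRIP against input, 0.305 to 0.589% were higher and 10.5 to 36% lower.

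The reversals concern comparisons that were not called. Against control xRIP, CCHa2 reversed to 0.013 with library totals, 0.042 with DESeq2 on the 2 groups and 0.81 with voom. Crz reversed to 0.24 with size factors, 0.26 with totals, 0.057 with edgeR on the 2 groups, 0.29 with DESeq2 on the 2 groups, 0.24 on 3 groups and 1.12 with voom. Ilp5 reversed to 0.33, 0.32, 0.051, 0.35, 0.33 and 2.70 in the same settings, and Nplp4 to 1.03 with voom. Against input, voom gave -0.00012 for CCHa2, -0.71 for Nplp1 and -0.76 for sNPF. Dsk reversed to 0.28 with size factors, 0.28 with DESeq2 on 3 groups and 0.71 without the mixed inputs, Ilp2 to -0.0060 without the filter and -0.0083 with edgeR on the 2 groups, and Ilp6 to -0.065 without the mixed inputs. Over fits without 1 library, log2 fold changes that took both signs ran against control xRIP over -0.96 to 0.31 for CCHa2, -0.66 to 0.99 for Crz, -0.032 to 1.16 for Dsk, -0.96 to 9.27 for Ilp5, -0.85 to 5.27 for Lk, -0.23 to 9.38 for Ms and -0.78 to 0.89 for Nplp4, and against input over -0.59 to 0.36 for CCHa2, -0.81 to 0.19 for Dsk, -0.062 to 0.15 for Ilp2, -0.057 to 0.51 for Ilp6, -0.16 to 0.49 for Nplp1 and -0.0048 to 1.21 for sNPF.

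Pum xRIP and control xRIP libraries share replicate numbers. Over all genes tested, deviations from the group mean had correlations of 0.0005, 0.0058, 0.0126 and 0.0193 between same-numbered libraries. Many genes had no counts in single xRIP libraries, so these values cannot tell whether same-numbered libraries were prepared together. With the number as a replicate block, 0 member genes and 0 member clusters were called higher and 1 gene (Nplp3) lower than control xRIP, Crz, Ilp5 and Nplp4 reversed to 3.18, 5.15 and 0.77, and Dh44 was at an adjusted p of 0.160. Of all genes, this fit called 5.13% higher and 2.55% lower than control xRIP, and of all clusters 5.21% higher. A gene at 0 in the 4 control xRIP libraries is known only to lie under a floor of 3 counts.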
